A study of Danio rerio with 4 samples.

Results

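The genes described here encode transcription factors that blood stem and progenitor cells depend on: cmyb, runx1, gata2a, gata2b, gfi1aa, gfi1ab, fli1a, erg and meis1. They were taken by a fixed set of gene symbols, drawn up with earlier results of these data known, and are 9 of the 32434 genes in the count table of a zebrafish study. The symbol etv6 was also searched for and is not analysed here, since no row carried it. The libraries hold polyadenylated RNA from kidney marrow, the site of blood formation in adult fish, after cells of high forward and side scatter had been sorted as progenitors (HSPCs). There were 2 libraries from tet2 mutant fish (tet2 m/m) and 2 from wild-type fish (tet2 wt/wt), and the comparison asked how transcripts differ when Tet2, a dioxygenase acting on methylated cytosines, lacks catalytic activity. The mutants come from a stable line made with zinc finger nucleases that carries a small deletion in tet2 in every cell, so a difference need not arise in the blood cells themselves. For all 4 libraries the age is 4 months in the sample titles and in the column headers of the counts, but 15 months in the descriptions. The study's expression comparison is described for the younger age. The study calls the replicates of its methylation data biological pools and describes the RNA as an aliquot of the sorted cells. The labels do not tie these RNA replicates to separate fish or pools, so the spread between these libraries may be partly technical. The p-values rest on this spread. Where replicate number was fitted as a block, they rest on the part left after differences between replicate numbers were removed.

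Blood stem cells arise in the embryo from endothelium of the aorta, a step for which Runx1 is required, with Gata2b acting before it in zebrafish. Myb maintains the stem and progenitor cells that result, and Gata2, Erg, Fli1 and Meis1 act with Runx1 and Tal1 on shared regulatory regions in mouse and human progenitors. Gfi1 proteins are repressors that recruit histone demethylases and deacetylases. Many of these genes are also used outside stem cells: MYB in dividing precursors of red cells and B cells, FLI1 in megakaryocytes and endothelium, GFI1 in neutrophil precursors and lymphocytes.

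Library totals ran from 8838603 to 10710913 reads, and 18359 to 18739 genes had a read in a library. A count of 0 allows up to 3 reads, or 0.271 to 0.396 CPM (read counts scaled to a common library size) in these libraries, and this limit covers counting error only. The transcript of tet2 itself had 23.7 and 25.5 CPM in mutants and 33.8 and 24.4 CPM in wild type (log2 fold change -0.23 ± 0.22, SE, edgeR adjusted p = 0.683). This value does not check the labels, because an RNA level can be untouched by a deletion of a few bases. The tests below are edgeR quasi-likelihood tests on 17242 genes with more than 5 reads over the libraries, with replicate number as a block. A gene counted as called when its adjusted p was under 0.05 and its log2 fold change exceeded 1 in either direction. Over all tested genes the median log2 fold change was -0.01.

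All 9 transcription factor genes had enough reads to be tested. The cmyb and gfi1ab transcripts were lower in tet2 m/m progenitors, at 0.343 and 0.316 of the wild-type level, and fli1a was higher. The meis1 transcript passed the p threshold in the same upward direction but fell short of the fold threshold. The test called none of gata2a, gata2b, erg, gfi1aa and runx1. Thus 3 of 9 (33.3%) were called, 1 higher and 2 lower, where the background was 3.71% of all tested genes, 1.8% higher and 1.9% lower. At an adjusted p under 0.05 alone there were 4 of 9, 2 of them higher, beside 5.93% of all genes (2.98% higher and 2.95% lower). In 7 of 9 genes the mutant and wild-type libraries did not overlap in CPM, 3 higher and 4 lower. This occurred in 44.8% of all tested genes (23.1% higher and 21.7% lower), and 2 libraries against 2 cannot give a two-sided exact permutation p below 0.333.

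**Figure D1:**
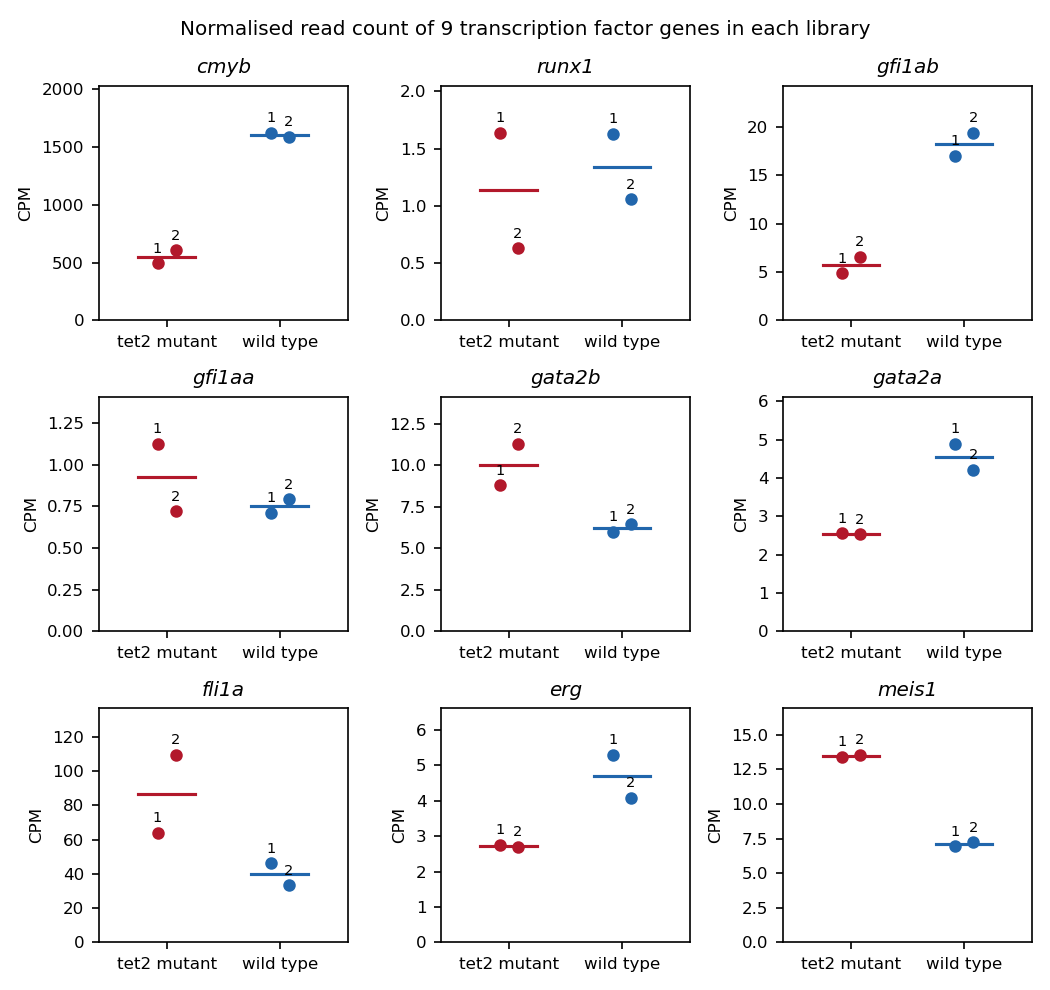
Normalised read count (CPM, linear axis from 0) of each of the 9 genes, with tet2 mutant libraries at left and wild-type libraries at right. Points are single libraries marked by replicate number and lines are genotype means. The cmyb points lie at 496 and 608 CPM in mutants and at 1624 and 1592 CPM in wild type, whereas those of runx1 overlap between genotypes.

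The gene cmyb (ENSDARG00000053666, human counterpart MYB) encodes a DNA-binding activator that keeps progenitors dividing and undifferentiated. It had 4847 and 6733 reads in mutant replicates 1 and 2, against 15932 and 12062 in wild-type replicates 1 and 2. Scaled to library size this was 496 and 608 CPM in mutants and 1624 and 1592 CPM in wild type. Both mutant libraries lay far below both wild-type libraries, and the replicates of each genotype were close. The mean was 552 ± 79.2 CPM in mutants and 1608 ± 22.5 CPM in wild type (SD, n = 2 each), which made cmyb fall to 0.343 of the wild-type level. The log2 fold change was -1.55 ± 0.34 (SE, edgeR adjusted p = 0.00372). Its sign was kept in 12 of 12 alternative settings, with log2 fold changes between -1.70 and -1.40, and cmyb was called in 10 of them. The call was lost in edgeR's newer bias-adjusted fit (adjusted p = 0.0737) and without mutant replicate 1 (edgeR adjusted p = 0.0533).

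Because whole sorted fractions were sequenced, fewer cells of a type and less RNA per cell cannot be told apart for any of these genes. Summed levels of the B cell, mitosis and red cell marker lists were, like cmyb, lower in both mutant libraries. Of 9 B cell markers 7 were called lower, 0 were higher, and the summed level was 299.6 and 225 CPM in mutants and 479 and 439 CPM in wild type. Of 17 mitosis genes tested 6 were called lower and 0 higher, with sums of 1001 and 1086 CPM in mutants and 1924 and 1958 CPM in wild type. Red cell markers summed to 23439 and 17627 CPM in mutants and 43418 and 67547 CPM in wild type, with 1 of 10 called lower and a median log2 fold change of -0.83. Most of that sum was the globin gene hbaa1, at 18697 and 13969 CPM in mutants and 34852 and 58434 CPM in wild type. This globin gene was not called (log2 fold change -1.48 ± 0.75, SE, edgeR adjusted p = 0.311). Over all tested genes edgeR called 1.9% lower. DESeq2 called 4 of 9 B cell, 5 of 17 mitosis and 2 of 10 red cell genes lower and 0 higher. At an unadjusted edgeR p of 0.05, 8 of 9 B cell, 17 of 17 mitosis and 7 of 10 red cell genes passed downward. The share of all genes passing at that level is not given, here or for the lists below. The T and NK cell sum was 117 and 135 CPM in mutants and 182 and 234 CPM in wild type. Most of each sum was ccr9a, at 78.8 and 107 CPM in mutants and 156 and 209 CPM in wild type. This gene passed the adjusted threshold but fell short of the fold threshold (log2 fold change -0.97 ± 0.22, SE, edgeR adjusted p = 0.00558). Of the 10 tested T and NK cell genes edgeR and DESeq2 called 0, and the median log2 fold change was 0.25. At an unadjusted edgeR p under 0.05, 1 was higher and 1 lower. The defining markers of each of these lists were above 0 in at least 1 library. The part of these cells in the cmyb difference was not tested.

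**Figure D2:**
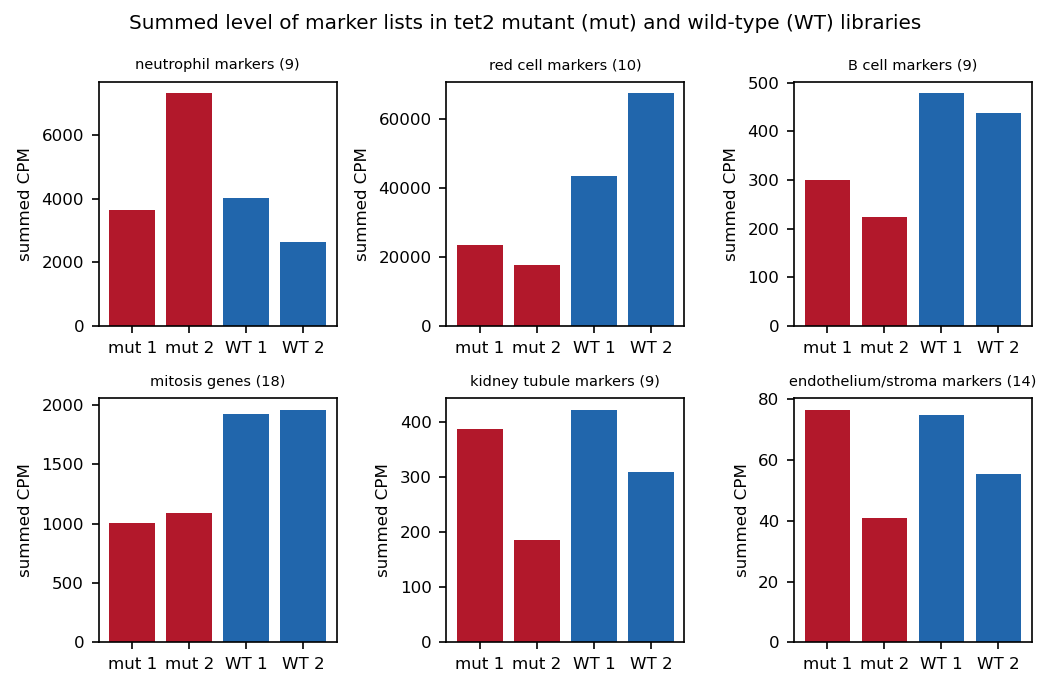
Summed normalised read count (CPM, linear axis from 0, scale differing between panels) of 6 marker lists in each library, tet2 mutant libraries at left and wild-type libraries at right, with the number of genes in parentheses. Red cell, B cell and mitosis sums were lower in both mutant libraries than in both wild-type libraries. The neutrophil sum was highest in mutant replicate 2 at 7330 CPM. The red cell sum was mostly hbaa1 and the kidney tubule sum mostly slc20a1a, which was highest in wild-type replicate 1. The tubule gene cdh17 had 26.2 and 2.44 CPM in mutants and 4.38 and 3.69 CPM in wild type. Another, atp1a1a.4, had 35.7 and 2.17 CPM in mutants and 8.35 and 5.01 CPM in wild type.

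The Gfi1 repressors were represented by the paralogs gfi1ab and gfi1aa. For gfi1ab (ENSDARG00000044457, annotated as GFI1) there were 48 and 73 reads in mutants, against 167 and 147 in wild type. The levels were 4.91 and 6.59 CPM in mutants and 17.0 and 19.4 CPM in wild type. Both mutant libraries were below both wild-type libraries by more than the spread within a genotype. The mean was 5.75 ± 1.19 CPM in mutants and 18.2 ± 1.68 CPM in wild type (SD, n = 2 each). This gave a log2 fold change of -1.67 ± 0.26 (SE, edgeR adjusted p = 5.73e-05). It was called in 12 of 12 alternative settings, with log2 fold changes of -1.89 to -1.46 and adjusted p-values of 5.43e-08 to 0.0291.

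Its paralog gfi1aa (ENSDARG00000020746), which acts in early red cell precursors of the zebrafish embryo, had 11 and 8 reads in mutants and 7 and 6 in wild type. At 1.13 and 0.722 CPM in mutants and 0.713 and 0.792 CPM in wild type, the genotypes overlapped. With so few reads the log2 fold change had a wide error (0.28 ± 0.88, SE, edgeR adjusted p = 0.929), and no difference between genotypes was detectable at this depth. Within a library, gfi1ab supplied 81.4% (95% Wilson interval 69.6 to 89.3%) and 90.1% (81.7 to 94.9%) of the reads of the pair in mutants, and 96.0% (91.9 to 98.0%) and 96.1% (91.7 to 98.2%) in wild type. This share does not depend on the scaling of libraries, and its intervals, which cover counting error only, overlapped between mutant replicate 2 and wild type. The related repressor gfi1b, which works in red cells and thrombocytes, had 27.9 and 26.2 CPM in mutants and 28.0 and 27.2 CPM in wild type (edgeR adjusted p = 0.968).

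The GATA factors gata2b and gata2a are the zebrafish copies of GATA2, a zinc finger factor of stem cells. In zebrafish embryos gata2b acts in the blood-forming endothelium and gata2a mainly in vessels. Reads of gata2b (ENSDARG00000009094) numbered 86 and 125 in mutants and 59 and 49 in wild type, and its levels were 8.80 and 11.3 CPM in mutants and 6.01 and 6.47 CPM in wild type. Both mutant libraries were the higher ones, but the log2 fold change of 0.68 ± 0.29 (SE) did not pass the edgeR test (unadjusted p = 0.0264, adjusted p = 0.206). Reads of gata2a (ENSDARG00000059327) numbered 25 and 28 in mutants and 48 and 32 in wild type. Its levels of 2.56 and 2.53 CPM in mutants and 4.89 and 4.22 CPM in wild type did not overlap either, in the other direction. The log2 fold change was -0.84 ± 0.40 (SE, edgeR unadjusted p = 0.0437, adjusted p = 0.273).

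The opposite signs of the gata2 paralogs gave a shift in their balance. Of the reads of the pair, gata2b supplied 77.5% (95% Wilson interval 68.9 to 84.3%, 86 of 111) and 81.7% (74.8 to 87.0%, 125 of 153) in mutants. In wild type it supplied 55.1% (45.7 to 64.2%, 59 of 107) and 60.5% (49.6 to 70.4%, 49 of 81). The mean share was 21.8 percentage points higher in mutants, and 19.1 to 24.4 points higher with any 1 library left out. Intervals of mutant replicate 1 and wild-type replicate 2 overlapped slightly, and no test was made on 2 shares against 2. The sources used here do not say how reads matching both paralogs were assigned.

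**Figure D3:**
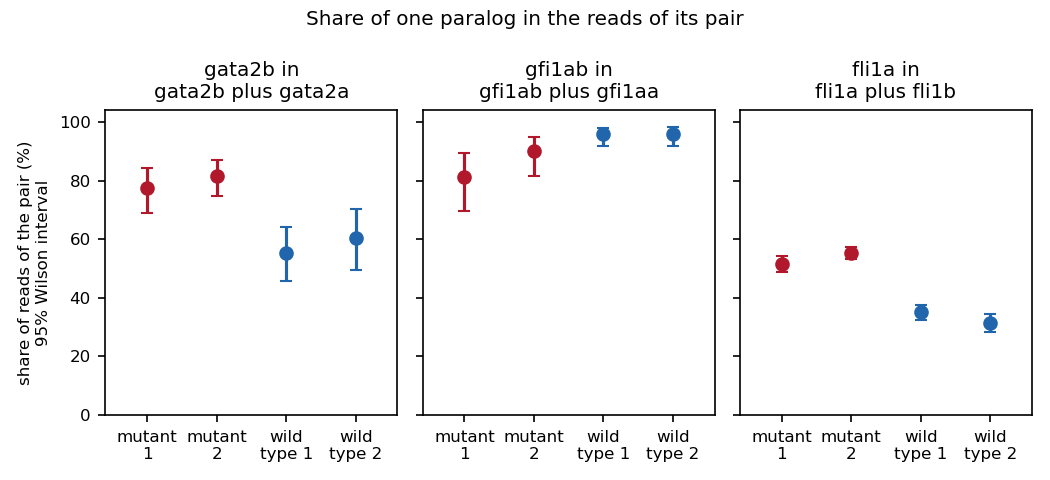
Share of 1 paralog in the reads of its pair (percent, axis from 0), for gata2b, gfi1ab and fli1a from left to right, with tet2 mutant libraries left of wild-type libraries. Points are single libraries and bars 95% Wilson intervals. The share of gata2b was 77.5% and 81.7% in mutants and 55.1% and 60.5% in wild type.

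Among the ETS factors, fli1a (ENSDARG00000054632, annotated as FLI1) was the gene called higher. It acts at the head of the blood and vessel programme in zebrafish embryos and in thrombocytes. It had 625 and 1212 reads in mutants and 455 and 253 in wild type, or 63.9 and 109.4 CPM in mutants and 46.4 and 33.4 CPM in wild type. The lower mutant library was above the higher wild-type library, but mutant replicate 2 stood well above mutant replicate 1. The mean was 86.7 ± 32.2 CPM in mutants and 39.9 ± 9.18 CPM in wild type (SD, n = 2 each), a 2.17-fold higher level. The log2 fold change was 1.08 ± 0.24 (SE, edgeR adjusted p = 0.0037). This call held in 7 of 12 alternative settings. It was lost without the replicate block (1.12, edgeR adjusted p = 0.0646), in DESeq2 (1.08, adjusted p = 0.061), in the bias-adjusted fit (1.09, adjusted p = 0.142), without mutant replicate 2 (0.68, edgeR adjusted p = 0.201) and without wild-type replicate 2 (0.89, edgeR adjusted p = 0.0688).

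The summed level of neutrophil markers, like fli1a, was highest in mutant replicate 2 and lowest in wild-type replicate 2, although mmp13a, mmp9 and ncf1 were lowest in wild-type replicate 1. The sums were 3645 and 7330 CPM in mutants and 4039 and 2628 CPM in wild type, so unlike fli1a they overlapped between genotypes. Most of each sum was lyz (log2 fold change 0.47 ± 0.44, SE, edgeR adjusted p = 0.677). Of 4 defining markers 0 were at 0 in every library. The median log2 fold change was 0.96, edgeR called 1 of 9 higher and 0 lower, DESeq2 called 0, and 8 of 9 passed an unadjusted edgeR p of 0.05 upward. Thrombocyte markers summed to 429 and 450.2 CPM in mutants and 375 and 341 CPM in wild type, and edgeR and DESeq2 called 0 of 7 (1 higher at an unadjusted edgeR p under 0.05). That marker, the integrin gene itga2b, also passed the adjusted threshold and fell just short of the fold threshold (log2 fold change 0.98 ± 0.30, SE, edgeR adjusted p = 0.0459). Most of each thrombocyte sum was nfe2 and plek, which are not defining markers and were not called. The other defining markers overlapped between genotypes. For gp1bb they were 51.3 and 23.7 CPM in mutants and 43.7 and 23.7 CPM in wild type. For thbs1b they were 7.98 and 3.25 CPM in mutants and 4.48 and 2.77 CPM in wild type. Endothelium and stroma markers summed to 76.5 and 40.8 CPM in mutants and 74.9 and 55.3 CPM in wild type, with 0 of 14 called by edgeR or DESeq2 (2 lower at an unadjusted edgeR p under 0.05). The part of these cells in the fli1a difference was not tested.

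The duplicate fli1b (now named fli1rs) did not share the change. It had 60.1 and 88.8 CPM in mutants and 85.9 and 73.1 CPM in wild type, with a log2 fold change of -0.12 ± 0.22 (SE, edgeR adjusted p = 0.866). Accordingly fli1a supplied 51.5% (95% Wilson interval 48.7 to 54.3%) and 55.2% (53.1 to 57.3%) of the reads of this pair in mutants, and 35.1% (32.5 to 37.7%) and 31.4% (28.2 to 34.6%) in wild type. The intervals of mutant and wild-type libraries were apart, the mean share was 20.2 points higher in mutants, and at least 18.3 points higher with any 1 library left out. This pair was examined after the values of fli1a had been seen.

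The ETS gene erg (ENSDARG00000077304), which in mouse sustains adult stem cells, had 27 and 30 reads in mutants and 52 and 31 in wild type. Its 2.76 and 2.71 CPM in mutants lay below the 5.30 and 4.09 CPM in wild type. With a log2 fold change of -0.77 ± 0.39 (SE, edgeR unadjusted p = 0.0572, adjusted p = 0.313) it was not called. Before scaling, the reads of wild-type replicate 2 were close to those of both mutant libraries.

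The homeobox gene meis1 (ENSDARG00000012078) encodes a partner of Hox and Pbx proteins that in mouse preserves stem cells. It had 131 and 150 reads in mutants and 68 and 55 in wild type, or 13.4 and 13.5 CPM in mutants and 6.93 and 7.26 CPM in wild type. The replicates of each genotype were nearly equal and the genotypes were apart. The mean of 13.5 ± 0.0997 CPM in mutants was 1.90 times the 7.09 ± 0.232 CPM in wild type (SD, n = 2 each). The log2 fold change of 0.92 ± 0.27 (SE) had an edgeR adjusted p of 0.0339 and stayed within 0.87 to 0.95 over 12 alternatives. The adjusted p was under 0.05 in only 4 of those 12, and ran from 0.0176 to 0.528.

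Reads of runx1 (ENSDARG00000025921), the factor that starts adult-type blood formation, numbered 16 and 7 in mutants and 16 and 8 in wild type. The levels were 1.64 and 0.632 CPM in mutants and 1.63 and 1.06 CPM in wild type, so that replicate 1 of each genotype was high and replicate 2 low. No difference between genotypes was detectable (log2 fold change -0.31 ± 0.72, SE, edgeR adjusted p = 0.901). A second identifier, ENSDARG00000087646, which carries no symbol in the table and is now named runx1, added 6 and 7 reads in mutants and 5 and 5 in wild type. Values of runx1 are therefore split over rows and uncertain.

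**Figure D4:**
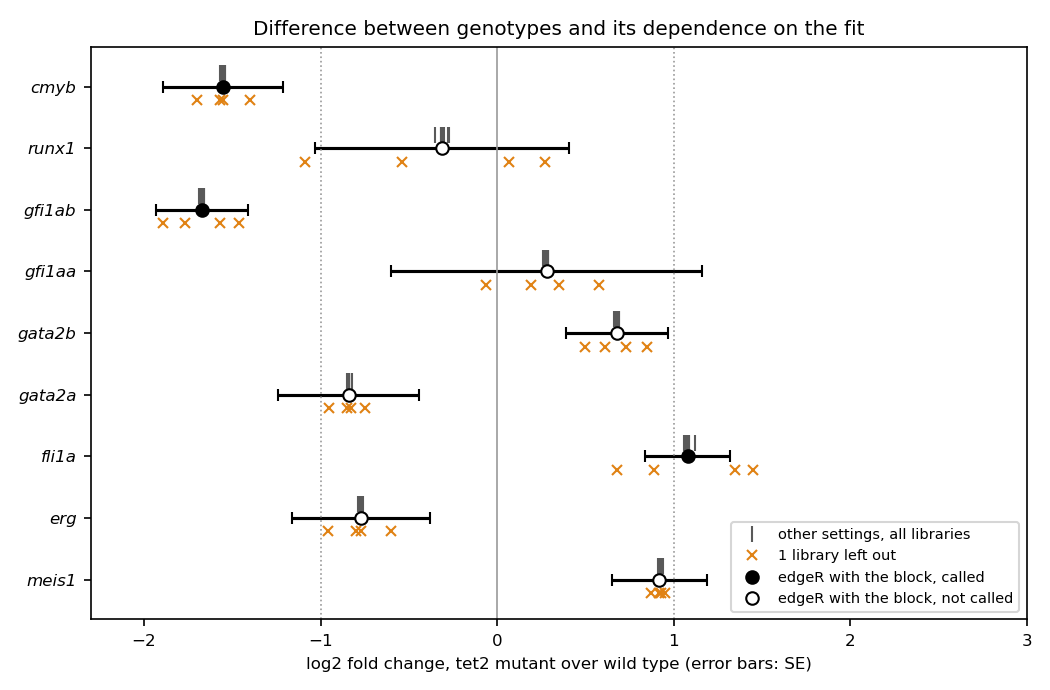
Log2 fold change, tet2 mutant over wild type, of the 9 genes. Circles with bars are the edgeR estimate with its SE, filled where called, grey ticks are other settings with all libraries, crosses leave out 1 library, and dotted lines mark the fold threshold. All settings kept cmyb and gfi1ab below -1, whereas fli1a ran from 0.68 to 1.45 and runx1 from -1.09 to 0.27.

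Related genes were examined in 5 lists of partners, relatives, downstream genes, other stem cell genes and Notch pathway genes. Over these lists 3 of 84 tested genes were called (3.57%, near the 3.71% of all genes), 0 higher and 3 lower. Among 17 partners and cofactors 0 were called by edgeR or DESeq2 (2 higher and 0 lower at an unadjusted edgeR p under 0.05), and the median log2 fold change was -0.06 over a range of -0.55 to 0.82. The deacetylase gene hdac1 had a log2 fold change of 0.20, the stem cell factor tal1 -0.06 and the demethylase gene kdm1a, a partner of Gfi1 proteins, -0.11 (edgeR adjusted p = 0.783, 0.943 and 0.881). Of 20 relatives 0 were called by edgeR or DESeq2 (1 higher and 2 lower at an unadjusted edgeR p under 0.05), with a median of -0.10. The myeloid ETS genes spi1 and spi1l had log2 fold changes of -0.13 and 0.25 and the ETS gene elf1, printed as ef1 in the table, 0.21 (edgeR adjusted p = 0.882, 0.705 and 0.759).

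**Figure D5:**
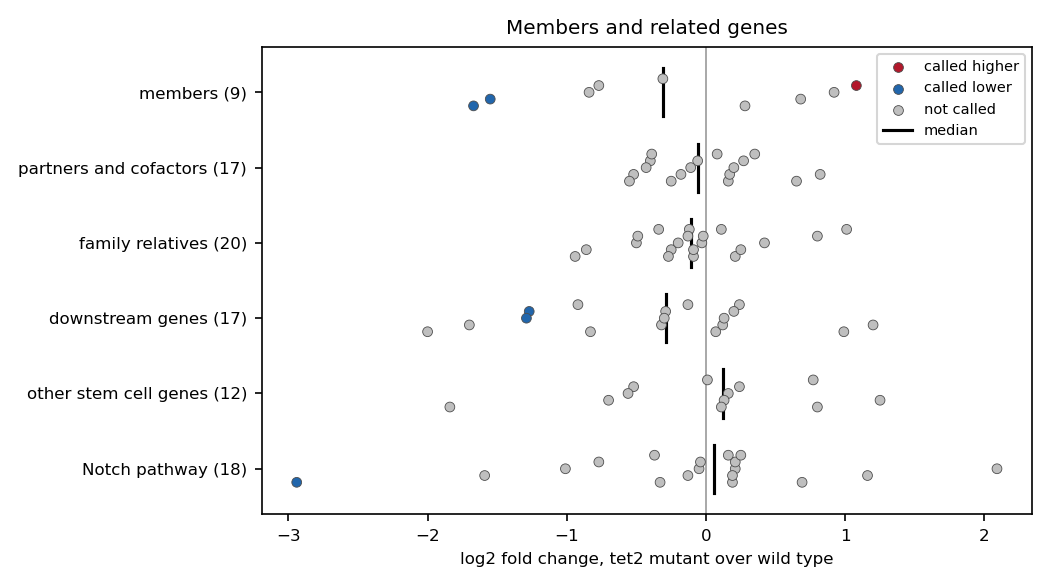
Log2 fold change, tet2 mutant over wild type, of the 9 genes (top row) and of 5 lists of related genes, with the number tested in parentheses. Points are genes, blue where called lower, red where called higher and grey where not called, and bars are medians. In the lists 3 of 84 genes were called, all lower.

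Of 17 downstream genes, edgeR called 2 lower and 0 higher and DESeq2 called 1 lower and 0 higher, with a median log2 fold change of -0.29. At an unadjusted edgeR p under 0.05, 1 was higher and 5 were lower. The macrophage growth factor receptor gene csf1ra had 12.4 and 5.78 CPM in mutants and 31.4 and 13.1 CPM in wild type (log2 fold change -1.27 ± 0.24, SE, edgeR adjusted p = 0.000867). Mutant replicate 1 was nearly level with wild-type replicate 2, and with wild-type replicate 1 left out the estimate was -0.55 on the log2 scale (edgeR adjusted p = 0.667). The cyclin D gene ccnd2a, which drives entry into the cell cycle, had 15.6 and 6.32 CPM in mutants and 34.2 and 17.5 CPM in wild type (log2 fold change -1.29 ± 0.23, SE, edgeR adjusted p = 0.000446). Mutant replicate 1 was again close to wild-type replicate 2, and the value was -0.70 (edgeR adjusted p = 0.439) when wild-type replicate 1 was left out. Without mutant replicate 2 neither gene was called, with -0.86 for csf1ra and -0.73 for ccnd2a. Neither was called without the replicate block (edgeR adjusted p = 0.161 for csf1ra and 0.162 for ccnd2a), and DESeq2 did not call csf1ra (adjusted p = 0.0703). The macrophage marker list, which includes csf1ra, went both ways. EdgeR called 3 of its 20 tested genes higher and 5 lower, and DESeq2 called 2 higher and 2 lower. Among its 17 defining genes, mpeg1 was called higher (log2 fold change 1.28 ± 0.21, SE, edgeR adjusted p = 0.000109). Another, marco, passed the adjusted threshold downward but fell short of the fold threshold (log2 fold change -0.77 ± 0.21, SE, edgeR adjusted p = 0.0192). Copies of mfap4 were called in both directions. The chemokine receptor gene cxcr4b, the myeloid factor gene cebpa and the early response gene egr1 had log2 fold changes of -0.32, 0.24 and -0.30 (edgeR adjusted p = 0.677, 0.732 and 0.641).

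At an adjusted p under 0.05 alone, 7 of the 84 genes passed (8.33%, beside 5.93% of all genes), 1 higher and 6 lower. Among these 7, csf1ra, ccnd2a, id2a, csf3r and cxcr4a belonged to the downstream list. The 4 that fell short of the fold threshold are named after their values were seen. They were id2a, an inhibitor of helix-loop-helix factors (log2 fold change 0.99 ± 0.21, edgeR adjusted p = 0.00248), the red cell factor gata1a (-0.86 ± 0.24, edgeR adjusted p = 0.0251), the granulocyte growth factor receptor gene csf3r (-0.92 ± 0.22, edgeR adjusted p = 0.00869) and cxcr4a (-0.83 ± 0.24, edgeR adjusted p = 0.0274). For csf3r replicate 1 was well above replicate 2 in both genotypes, at 117.0 and 25.4 CPM in mutants and 181 and 59.5 CPM in wild type, and the genotypes overlapped. For cxcr4a the levels were 48.5 and 46.9 CPM in mutants and 56.6 and 127 CPM in wild type. Wild-type replicate 2 stood well above the rest, and wild-type replicate 1 was close to the mutants.

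Of 12 other stem cell genes 0 were called by edgeR or DESeq2 (0 higher and 1 lower at an unadjusted edgeR p under 0.05), and their median log2 fold change was 0.12. The factor gene hlfa had -0.52, the polycomb gene bmi1a 0.13 and prom1a, the gene of a stem cell surface protein, 0.01 (edgeR adjusted p = 0.149, 0.842 and 0.988). In the Notch pathway, which acts before runx1 in the embryo, edgeR called 1 of 18 genes lower and 0 higher, with a median of 0.06. DESeq2 called 0, and at an unadjusted edgeR p under 0.05, 0 were higher and 2 lower. The receptor gene notch3 had 5 and 1 reads in mutants and 39 and 6 in wild type (log2 fold change -2.94 ± 0.83, SE, edgeR adjusted p = 0.0272). Its reads lay mostly in wild-type replicate 1, without which the value was -1.41 (edgeR adjusted p = 0.816), and it was called in 5 of 11 alternative settings. The call was also lost without the block (edgeR adjusted p = 0.159), in the bias-adjusted fit (0.0756), with scaling that left out the 100 most abundant genes (0.0558) and without mutant replicate 2 (0.215), and DESeq2 gave no adjusted p. The receptor gene notch2, the DNA-binding factor gene rbpja and the target gene her9 had log2 fold changes of 0.21, -0.05 and -0.13 (edgeR adjusted p = 0.72, 0.948 and 0.842).

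Patterns over the 4 libraries were compared by Euclidean distance of centred log2 CPM. The search covered tested genes with a symbol in the table and at least 1 CPM on average. Closest to cmyb were etv5b (0.092), an ETS factor gene, and st8sia4 (0.140), a sialyltransferase gene. Closest to gfi1ab were marcksb (0.097), a gene of a membrane-bound kinase substrate, and ARHGAP29 (1 of 2) (0.156). Closest to fli1a were PRAM1 (0.031) and si:dkey-286j15.3 (0.104). For meis1 they were CT867973.1 (0.056) and C23H20orf24 (0.076), for gata2b zmynd19 (0.021) and PEX11G (0.028), and for gata2a si:dkeyp-20g2.2 (0.021) and dym (0.034). For erg they were lbr (0.019) and scamp1 (0.045), for gfi1aa cryzl1 (0.027) and mul1b (0.038), and for runx1 SLC38A9 (0.041) and GP9 (0.061). With 4 libraries and many genes, such closeness describes these libraries only.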

How the data were processed

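The authors ran FastQC 0.10.1 for read quality, STAR 2.3.0 for alignment and bedtools 2.16.1 for counts per Zv9 gene, per the study's methods and the submitters' processing notes. The deposited values are raw counts with no normalization. The sources used here do not give the handling of multi-mapping reads, strand or overlapping genes, and counts of near-identical copies are uncertain. The study's DNA methylation data were not analysed here. Of 32434 identifiers, 20769 matched a current symbol.

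Genes with more than 5 reads over the 4 libraries were scaled by TMM (factors 0.858 to 1.07) and tested two-sided with edgeR 4.0.16 (older quasi-likelihood form, limma 3.58.1, R 4.3.3), with genotype and replicate number as terms and Benjamini-Hochberg adjustment over 17242 genes. The filter, block and thresholds follow the study's methods, which used DESeq2. This leaves 1 residual degree of freedom per gene. The SE of an edgeR log2 fold change was derived from the estimate and its F statistic, so it is not a measure of error independent of the p-value. The script was tested on simulated data that held no replicate effect, so that test cannot show whether the block is needed. All 6 library pairs differed beyond counting error (chi-square per degree of freedom 21.6 to 83.7). Wilson intervals cover counting error only.

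The members and lists were chosen with earlier results of these data known. Named were all members, list genes that were called and the 3 genes of each list with the highest mean CPM. For each member the 2 genes nearest in pattern were also named, among those with a symbol and at least 1 CPM. Further alternatives were DESeq2 1.42.0, RLE scaling, scaling without the 100 most abundant genes, other filters, robust and bias-adjusted fits, no block, and each library left out. The share of fli1a beside fli1b was added after seeing the data.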

Additional observations from a re-analysis of the deposited data

How the results depend on the processing

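With 2 libraries per genotype and 1 residual degree of freedom, the number of calls varied widely and the cause was not tested. Over all genes, 639 were called, against 258 without the replicate block, 224 by DESeq2, 197 in the bias-adjusted fit and 412 to 940 with 1 library left out. Of the 9 transcription factor genes 3 were called, against 2 without the block, 2 by DESeq2, 1 in the bias-adjusted fit and 2 to 3 with 1 library left out. Fits with 1 library left out had no block, and the lone library of a genotype was assumed to vary like the others. Labels do not say that a replicate number marks a batch, and deviations of same-numbered libraries correlated at 0.136 over 12928 genes (not independent), so the pairing rests on the study's design term. The direction reversed for gfi1aa, whose log2 fold change ran from -0.06 to 0.58 with 1 library left out and was -0.06 without mutant replicate 1, and for runx1, which ran from -1.09 to 0.27 and was 0.27 without mutant replicate 2 and 0.07 without wild-type replicate 1. The other 7 genes kept their direction in every setting. Depth limits gfi1aa and runx1, which had 6 to 16 reads a library. Neither gfi1aa nor notch3 had a value with at least 10 reads required in 2 libraries.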
